A study of Canis lupus familiaris with 8 samples.

Results

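The CD antigens are cell surface proteins that were numbered because antibodies against them sort cell types, above all leukocytes. Their genes were followed in the anterior leaflet of the mitral valve of 8 dogs, with 1 Affymetrix array per dog. A gene was taken where its symbol was CD with 1 to 3 digits and at most 2 letters, apart from CD14, CD36 and CD59, and its brightest probe set stood for it. This gave 30 genes, with 53 probe sets, of 6540 genes that the annotation names singly. Control leaflets came from 4 dogs, each a beagle cross. The 4 affected dogs had degenerative mitral valve disease (DMVD), in which the leaflets of older dogs thicken and lose their shape. Affected 1 was a Lhasa apso and affected 3 a Dachshund, while affected 2 and 4 were each a Miniature poodle. No treatment, sex or age is given in the sources used here. Breed and disease cannot be told apart, because no breed occurs in both groups.

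A mitral leaflet is a sheet of interstitial cells in collagen and proteoglycan, covered by endothelium, and it holds resident macrophages and dendritic cells. CD antigens of such cells do different jobs. CD80, CD86 and CD40 pass the second signal by which an antigen-presenting cell activates a T cell, CD163 and CD209 bind material to be taken up, and tetraspanins such as CD81 organise other proteins in the membrane. Others, such as CD44 and CD34, mark stromal and endothelial cells as well as leukocytes.

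Among these genes the greatest differences lay in antigens of macrophages, dendritic cells and antigen-presenting cells, which had higher signals in affected leaflets. CD68 was 5.53 times as high, CD86 3.74 times, CD209 3.13 times and CD40 2.38 times, and for each of them every affected dog lay above every control. Without control 2, a control leaflet with very low signals for macrophage and interstitial genes, the same values were 3.22, 2.07, 2.45 and 2.37, and with median centring of the arrays the CD68 groups overlapped. CD163 was 3.12 times as high but overlapped between the groups, and was 1.52 times as high without control 2. The T cell antigens that could be measured, CD3E, CD4, CD3D and the ligand CD40LG, overlapped between the groups. Stromal, endothelial and broadly expressed CD antigens pointed both ways, while 6 of 6 tested endothelial genes without a CD symbol were higher in affected dogs. No gene passed the test over all probe sets.

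That test was limma on log2 signal, two-sided, with Benjamini-Hochberg adjustment over 14705 probe sets, and a probe set entered it if at least 4 of 8 arrays lay above the 40th percentile of their own array. The filter on brightness was passed by 24 of the 30 genes, and 6 were near the background. None of the 24 had an adjusted p under 0.05 (smallest 0.377, for CD209), and 0% of all tested probe sets did. At an unadjusted p under 0.05, 4 of the 24 were higher in affected dogs, or 16.7%, against 4.02% of all tested probe sets, and 0 were lower, against 3.81%. The groups did not overlap for 5 genes that were higher, or 20.8%, against 2.35% of all tested probe sets, and for 0 that were lower, against 2.31%. The mean was higher in affected dogs for 18 of the 24 and for 50.5% of all tested probe sets. This count and the one at an unadjusted p were added after seeing the data. The median log2 difference of the 24 was 0.48 and that of all tested probe sets 0.0065. These shares describe genes that passed a filter on brightness, and the members were chosen with earlier results of these data known. Under a stricter filter, with all 8 arrays above the 40th percentile, 17 genes were left. Of these 13 had a higher mean, against 49.7% of the 10690 probe sets tested under it, and 3 were higher with no overlap, against 2.31%.

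Marker genes of other cells varied between the leaflets. Interstitial cell genes (7 of 11 listed were named on the array) had a mean log2 signal of 11.43 in control 2, from 13.39 to 13.99 in the other controls and from 13.40 to 13.78 in affected dogs. Their median difference was 0.36 over all dogs and -0.072 without control 2. Heart muscle genes (12 of 17) ranged from 11.11 to 13.79 in controls and from 9.94 to 13.12 in affected dogs, with the highest value in control 2 and the lowest in affected 3. Of these 12 genes, 11 had a lower mean in affected dogs (median difference -0.55). Without control 2 the median was -0.093, with 4 of the 12 higher. For macrophage and monocyte genes (12 of 14) the mean log2 signal was 9.82, 6.54, 8.50 and 8.97 in controls 1 to 4 and 11.00, 9.88, 10.67 and 10.30 in affected dogs 1 to 4. Their summed signal ran from 1659 to 17996 in controls and from 19292 to 38775 in affected dogs. Control 2 thus had the least macrophage and interstitial cell signal and the most muscle signal, and it was also the lowest dog for 9 of the 24 CD antigen genes. In bulk tissue, fewer cells of a type and less RNA per cell cannot be told apart.

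**Figure D1:**
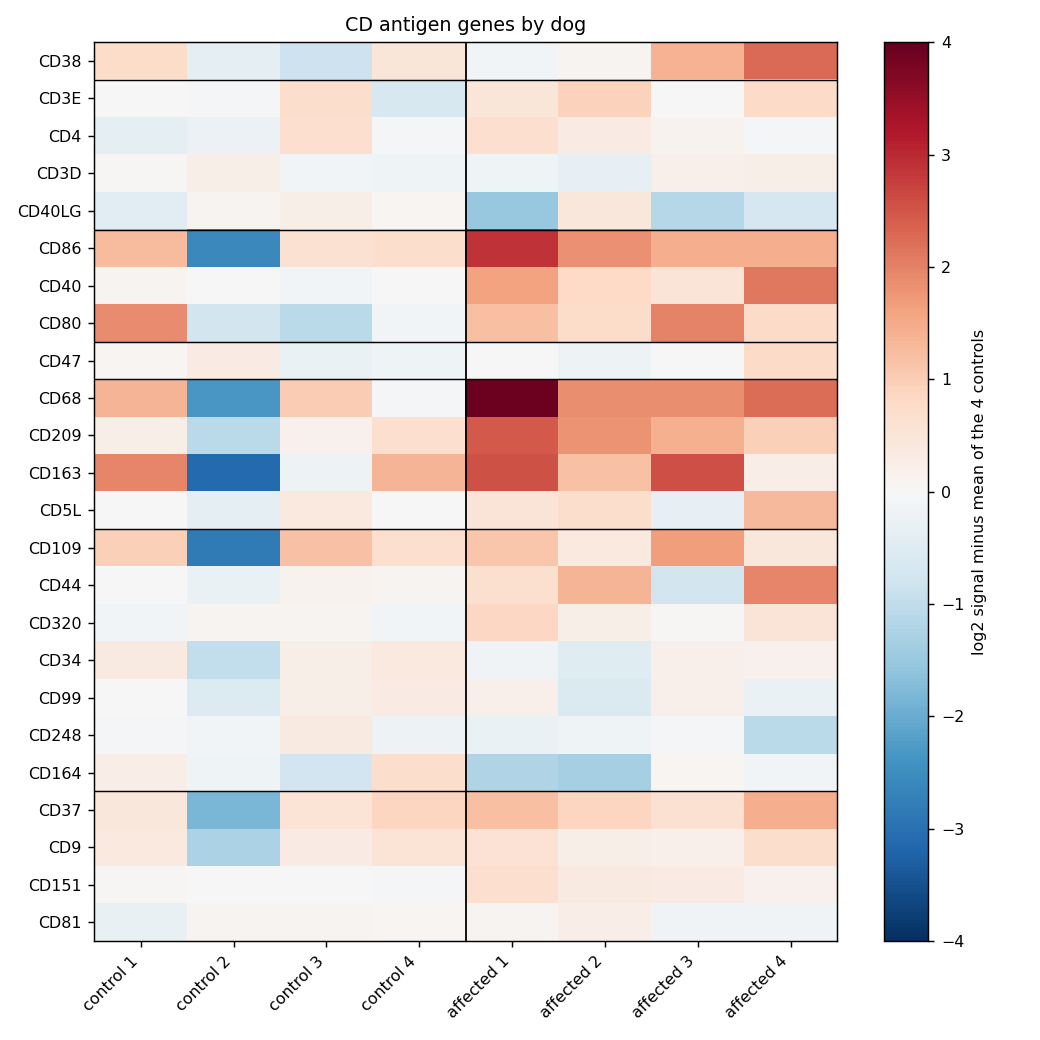
Each row is a tested CD antigen gene and each column a dog, coloured by the log2 signal minus the mean of the 4 controls, with black lines between role groups. CD86, CD68, CD163, CD109 and CD37 are blue in control 2, and CD68, CD209, CD86 and CD40 are red in all 4 affected dogs.

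The antigens that take part in presentation and costimulation were 3 genes, and all 3 had a higher mean in affected dogs (median log2 difference 1.25). CD40, a receptor through which T cells activate dendritic cells, B cells and macrophages, had log2 signals of 8.07, 7.93, 7.86 and 7.98 in controls 1 to 4 and 9.56, 8.75, 8.46 and 10.08 in affected dogs 1 to 4. The controls lay within a narrow band, and every affected dog was above it. The difference was 1.25 ± 0.35 (SE from limma, 4 dogs per group; adjusted p = 0.442). Without control 2 it was 1.24. CD86, a ligand of CD28 and CTLA4 on T cells, was at 10.02, 6.18, 9.35 and 9.44 in controls and at 11.64, 10.58, 10.19 and 10.20 in affected dogs. Control 2 was far below the other controls here. The groups did not overlap, and the difference of 1.90 ± 0.74 (adjusted p = 0.604) went to 1.05 without that dog.

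CD80, the other ligand of CD28 and CTLA4, had 3 probe sets, all with a higher mean in affected dogs. The brightest was at 9.12, 6.50, 6.14 and 7.12 in controls and at 8.42, 7.97, 9.20 and 7.98 in affected dogs. Control 1 was the only control inside the affected range. The difference was 1.17 ± 0.60 (adjusted p = 0.666), and 1.81 without control 1. The other CD80 probe sets differed by 1.83 ± 0.50, with no overlap between the groups, and by 1.42 ± 0.68. Both were dim, with 5 of 8 arrays above the 40th percentile. These were the arrays of all affected dogs and of control 1, so both entered the test mainly through the group where they were high.

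**Figure D2:**
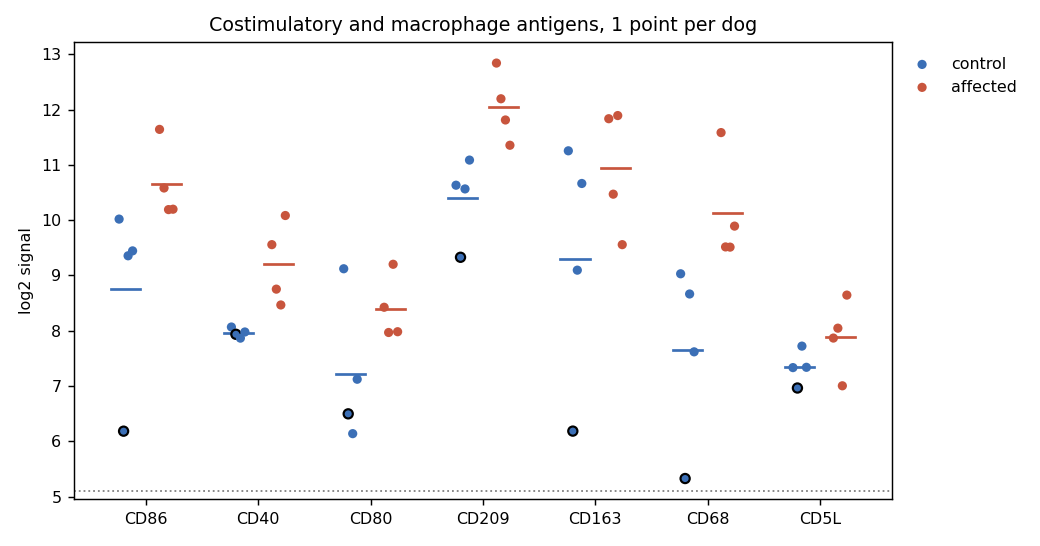
Log2 signal of the CD antigens of costimulation and of macrophages and dendritic cells, with 1 point per dog, bars at group means, control 2 outlined in black and the floor of 5.10 dotted. All affected points lie above all control points for CD86, CD40, CD209 and CD68, and the 4 CD40 controls sit between 7.86 and 8.07.

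Other genes of costimulation and presentation were sparsely covered. Of 20 listed, 7 were named on the array and 4 were tested, 3 of them with a higher mean and 0 past the threshold. TNFRSF14, a receptor on lymphocytes and other cells that binds BTLA, differed by 0.85 ± 0.33, and by 0.95 without control 2. CTSS, a protease that prepares class II molecules for peptide loading, differed by 1.34 ± 0.75, and by 0.46 without control 2. HAVCR2, an inhibitory receptor of T cells and myeloid cells, differed by -0.47 ± 0.27. The receptors CTLA4 and ICOS, which would meet CD80 and CD86 or their relatives on the T cell, were too dim to be tested.

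Antigens of macrophages and dendritic cells were 4 genes, and all 4 had a higher mean in affected dogs (median log2 difference 1.64, and 0.95 without control 2). CD68, a glycoprotein of macrophage lysosomes, was at 9.03, 5.33, 8.66 and 7.62 in controls and at 11.58, 9.51, 9.51 and 9.89 in affected dogs. The platform's gene ID for it is not in the RefSeq table used here, which has the symbol under another ID, so its name rests on the platform annotation. Its lowest affected dog was above its highest control, and control 2 was close to the floor of 5.10, below which signals were not read. The difference was 2.47 ± 0.77 (adjusted p = 0.509), and 1.69 without control 2. After median centring of the arrays its groups overlapped. CD209, a lectin of dendritic cells and macrophages that binds sugars of pathogens, was at 10.63, 9.33, 10.56 and 11.09 in controls and at 12.84, 12.20, 11.81 and 11.35 in affected dogs. The groups did not overlap, with affected 4 nearest to the controls. The difference was 1.65 ± 0.42 (adjusted p = 0.377), and 1.29 without control 2.

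CD163, the receptor by which macrophages clear haemoglobin bound to haptoglobin, had nearly the mean difference of CD209, with a wider spread. It was at 11.25, 6.18, 9.09 and 10.66 in controls and at 11.83, 10.47, 11.89 and 9.56 in affected dogs, so the groups overlapped. Affected 4, which had the highest CD40, had the lowest CD163 of the affected dogs. The difference was 1.64 ± 0.99 (adjusted p = 0.699), and 0.60 without control 2. CD5L is a secreted protein of macrophages and not a membrane antigen. It was at 7.33, 6.96, 7.72 and 7.34 in controls and at 7.87, 8.05, 7.00 and 8.64 in affected dogs. Affected 3 fell among the controls, and the difference of 0.55 ± 0.36 was 0.30 without affected 4 and 0.85 without affected 3.

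The macrophage and monocyte genes given above had the same group direction, since 12 of 12 tested were higher in affected leaflets and the median difference was 1.94 (1.16 without control 2). None of the 12 lay at the floor in every dog of either group. FCER1G was at 6.42, 5.10, 5.10 and 5.10 in controls, where 5.10 is the floor. It entered the test through the affected dogs alone, so its higher mean in them followed from the filter. Control 2 was also at the floor for C1QA, MRC1, AIF1 and FCGR1A. The part that the number of macrophages has in the differences of CD68, CD86, CD209 and CD163 was not tested.

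The T cell and NK cell antigens were 9 genes, of which 4 were tested and 5 missed the filter. CD3E, a signalling chain of the T cell receptor, was at 8.62, 8.57, 9.32 and 7.98 in controls and at 9.10, 9.54, 8.63 and 9.38 in affected dogs. Control 3 lay inside the affected range. The difference was 0.54 ± 0.33 (adjusted p = 0.699; 95% interval -0.19 to 1.27), and 0.33 without control 4. CD3D, another chain of the same receptor, ran from 6.70 to 7.11 in controls and from 6.55 to 7.12 in affected dogs. Its difference was -0.022 ± 0.29 (95% interval -0.66 to 0.62). CD3D was dim, with 6 of 8 arrays above the 40th percentile. The intervals of the 2 chains overlapped, so neither a shared nor a different direction can be read from them. CD4, the coreceptor of helper T cells that macrophages can also carry, ran from 7.92 to 8.96 and from 8.22 to 8.95, and differed by 0.27 ± 0.30. Its other probe set differed by 0.49 ± 0.32. The CD4 value was 0.13 without affected 1, 0.15 without control 1 and 0.50 without control 3.

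CD40LG, the T cell ligand of CD40, had the lowest difference of the 24 genes. It was at 6.35, 6.89, 7.03 and 6.87 in controls and at 5.26, 7.24, 5.63 and 6.10 in affected dogs. Affected 2 was above all controls and the other affected dogs were below them. The difference was -0.72 ± 0.45 (adjusted p = 0.705), -1.12 without affected 2 and -0.46 without affected 1. CD40LG passed the filter with exactly 4 arrays, those of controls 2, 3 and 4 and of affected 2. It thus entered the test mainly through the group where it was high. Its value was -0.066 with a floor at the 40th percentile, so its size is loose. Its other probe set was near the background.

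Just outside the filter, CD48 had 3 arrays above the 40th percentile, in affected dogs 1, 3 and 4. CD48 is a surface protein of most leukocytes that binds CD2 and CD244. It was at 6.09, 5.10, 6.23 and 6.31 in controls and at 7.99, 5.96, 6.67 and 8.04 in affected dogs. Its other probe set lay at the floor in affected 2 and in every control, and at 7.66, 6.59 and 7.58 in affected dogs 1, 3 and 4. CD28, the receptor for CD80 and CD86, lay between 5.10 and 6.86 in controls and between 6.09 and 6.75 in affected dogs. CD69, an early activation marker of lymphocytes, was at 6.87, 5.10, 5.10 and 5.47 in controls and between 5.76 and 5.95 in affected dogs, so control 1 was the highest dog. CD8A, the coreceptor of cytotoxic T cells, was at the floor in 2 controls and in all 4 affected dogs, and CD52, a small glycoprotein of lymphocytes, in all 4 controls and 3 affected dogs. For these genes no difference is given, because too few arrays measured them.

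CD38 was the only gene of the list of B cell antigens that the annotation names singly. It codes for an enzyme on plasma cells and other activated leukocytes that consumes NAD. It was at 9.62, 8.49, 8.07 and 9.39 in controls. It was at 8.78 in affected 1, 10.27 in affected 3 and 11.16 in affected 4, with affected 2 between affected 1 and control 4. Affected 1 and 2 thus lay within the control range. The difference was 0.91 ± 0.55 (adjusted p = 0.699), and 0.46 without affected 4. The second probe set of CD38 differed by -0.012 ± 0.62, against the first. Markers of other lymphocytes were few, with 1 of 12 T cell genes and 2 of 10 B and plasma cell genes tested, and the B cell factor PAX5 was at the floor on all arrays. The lists of neutrophil, mast cell and platelet or red cell markers had 1 tested gene each, with differences of 0.35, 0.74 and 0.063. That of fat cells had 2, both lower in affected dogs, ADIPOQ by -2.82 ± 1.36 and LEP by -0.48 ± 0.33. Their median was -1.65, and -2.52 without control 2, which was at the floor for ADIPOQ.

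Signalling proteins that act below the T and B cell receptors were sparsely covered, with 4 of 20 listed genes named and 3 tested. All 3 had a higher mean in affected dogs. The kinase LYN, which B cells and myeloid cells use, differed by 1.12 ± 0.42, and FYN by 0.55 ± 0.25. LCK, the kinase bound to CD4 and CD8 in T cells, differed by 0.34 ± 0.38, and by -0.04 without control 2.

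**Figure D3:**
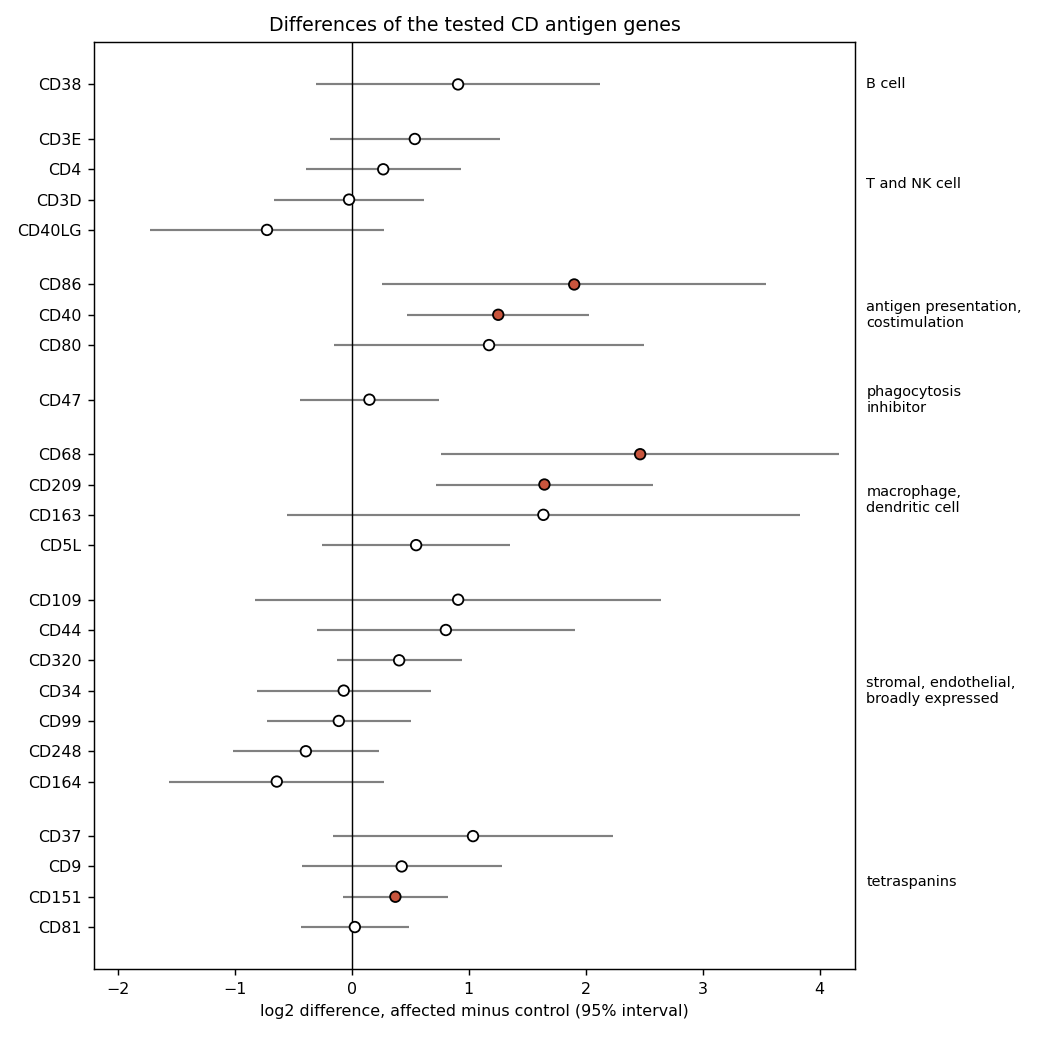
Log2 difference, affected minus control, of each tested CD antigen gene with its 95% interval from limma (4 dogs per group), by role, where filled points are genes whose groups do not overlap. The intervals of CD86, CD40, CD68 and CD209 lie above 0 before any adjustment, and those of the T cell and stromal genes include 0.

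The tetraspanins, proteins with 4 membrane spans that gather integrins and receptors into patches, were 5 genes. 4 were tested and all had a higher mean in affected dogs, with a median difference of 0.40 (0.22 without control 2). CD151, which binds laminin-binding integrins, was at 11.89, 11.88, 11.87 and 11.77 in controls and at 12.52, 12.20, 12.17 and 12.02 in affected dogs. The groups did not overlap, and the difference was small, at 0.37 ± 0.20 (adjusted p = 0.672). The other 2 probe sets of CD151 differed by 0.08 ± 0.22 and 0.01 ± 0.26, and the mean over all 3 by 0.15, with overlapping groups. Median centring of the arrays also ended the gap between the groups.

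CD37, a tetraspanin of leukocytes, was at 7.89, 5.61, 7.98 and 8.32 in controls and at 8.65, 8.32, 8.07 and 8.90 in affected dogs. Affected 3 lay below control 4 by a small margin, and control 2 was far below all other dogs. The difference was 1.04 ± 0.54 (adjusted p = 0.666), and 0.42 without control 2. Its second probe set differed by 1.17 ± 0.71. CD9, which platelets, endothelium and many other cells carry, was at 12.28, 10.61, 12.20 and 12.42 in controls and at 12.45, 12.11, 12.09 and 12.57 in affected dogs. Its difference of 0.43 ± 0.39 rested on control 2, since it was 0.0049 without that dog.

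CD81, which is found on most cells, ran from 13.65 to 14.06 in controls and from 13.80 to 14.21 in affected dogs. The difference was 0.027 ± 0.21 (adjusted p = 0.980; 95% interval -0.44 to 0.49), with the sign turned by quantile normalization (-0.12) and median centring (-0.05). All but 1 of its 7 probe sets are of a kind that can bind related transcripts, and the 5 that were tested differed by -0.21 to 0.19. CD63, a tetraspanin of lysosomes and secretory granules, was near the background on this array, between 5.10 and 6.36, and no probe set of it was tested. Of 20 other tetraspanins and partners listed, 11 were named and 10 tested, 3 with a higher and 7 with a lower mean (median -0.08). The 3 with the smallest p were TSPAN5 at 0.90 ± 0.33, which regulates the protease ADAM10, TSPAN33 at 0.73 ± 0.39 and TSPAN7 at -0.42 ± 0.23, and 0 of the 10 passed the threshold.

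CD47, a signal on most cells that keeps macrophages from engulfing them and that also binds thrombospondin, was the only gene named from the list of complement and phagocytosis inhibitors. It was at 11.42, 11.66, 11.06 and 11.17 in controls and at 11.36, 11.12, 11.36 and 12.09 in affected dogs. All affected dogs except affected 4 lay within the control range. The difference was 0.15 ± 0.27 (adjusted p = 0.891), and -0.05 without affected 4. A dimmer probe set differed by 0.59 ± 0.42.

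Stromal, endothelial and broadly expressed antigens were 7 genes, all tested, of which 3 had a higher and 4 a lower mean in affected dogs (median -0.068, and -0.29 without control 2). No group of dogs stood apart for any of them. CD44, the receptor for hyaluronan, was at 7.63, 7.36, 7.76 and 7.74 in controls and at 8.28, 8.97, 6.88 and 9.59 in affected dogs. Affected 3 was below all controls, and the other affected dogs were above them. The difference was 0.81 ± 0.50 (adjusted p = 0.704), 1.32 without affected 3 and 0.42 without affected 4. CD109, a membrane protein that binds TGF-beta and its receptors, was at 11.28, 7.50, 11.49 and 11.00 in controls and at 11.44, 10.70, 12.00 and 10.78 in affected dogs. Its difference of 0.91 ± 0.78 rested on control 2, since it was -0.03 without that dog.

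CD320, the receptor for vitamin B12 bound to transcobalamin, ran from 9.30 to 9.52 in controls and from 9.45 to 10.25 in affected dogs. Affected 3 was the only affected dog within the control range. The difference was 0.41 ± 0.24 (adjusted p = 0.698), and 0.26 without affected 1. CD164, a mucin that takes part in cell adhesion, was at 11.36, 10.92, 10.33 and 11.82 in controls and at 9.90, 9.80, 11.19 and 11.00 in affected dogs. Affected 1 and 2 were below all controls and affected 3 and 4 were not. The difference was -0.64 ± 0.41 (adjusted p = 0.711), -0.40 without control 4 and -0.42 without affected 2.

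CD248, or endosialin, marks pericytes and fibroblasts. It ran from 8.62 to 9.17 in controls and from 7.76 to 8.76 in affected dogs, with affected 4 lowest. The difference was -0.39 ± 0.28 (adjusted p = 0.728), and -0.17 without affected 4. CD34, a marker of endothelium, blood progenitors and some stromal cells, was at 12.43, 11.07, 12.29 and 12.44 in controls and at 11.91, 11.59, 12.24 and 12.21 in affected dogs. Control 2 was the lowest dog, and the other 3 controls were above all affected dogs. The difference was -0.068 ± 0.34 over all dogs and -0.40 without control 2, and the other tested probe sets of CD34 differed by 0.25 ± 0.26 and 0.58 ± 0.33. CD99, an adhesion protein that leukocytes use to cross endothelium, ran from 12.80 to 13.67 and from 12.76 to 13.56 and differed by -0.11 ± 0.28 (adjusted p = 0.930).

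Endothelial genes outside the CD symbols were higher in affected dogs in 6 of 6 tested, and their median difference was 0.78 and 0.82 without control 2. Their mean log2 signal ran from 9.23 to 9.75 in controls and from 10.12 to 10.35 in affected dogs. Of 20 listed ligands and partners of the myeloid, phagocytosis and stromal antigens, 8 were named and tested, 7 with a higher mean (median 0.46) and 0 past the threshold. TIMP1, a protease inhibitor that binds the tetraspanin CD63, differed by 2.24 ± 0.76, and by 1.34 without control 2. THBS1, a ligand of CD47, differed by 1.34 ± 0.54, and by 0.74 without control 2. SELP, an adhesion molecule of platelets and endothelium, differed by 2.05 ± 1.11, by 0.97 without control 2 and by 1.21 without affected 4.

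**Figure D4:**
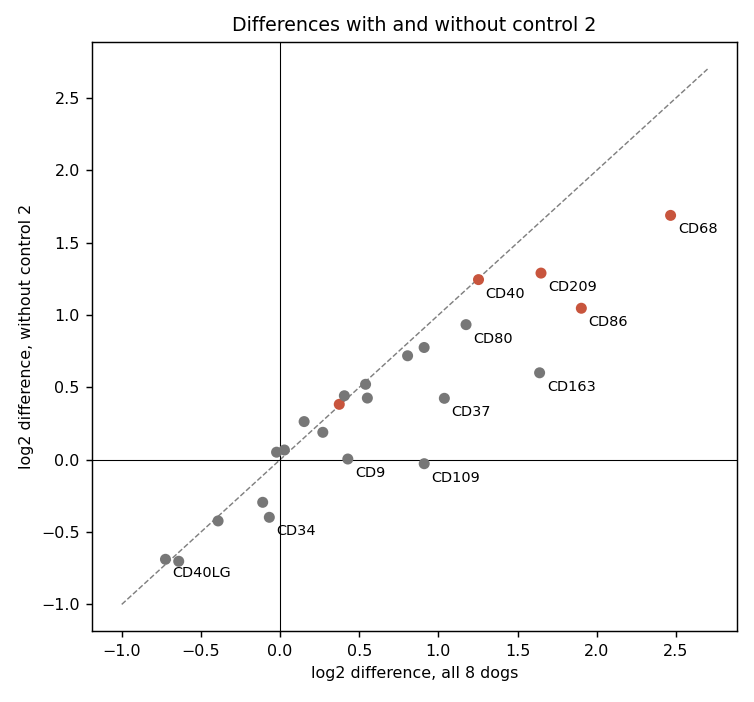
Log2 difference of each tested CD antigen gene over all 8 dogs (x axis) against the same without control 2 (y axis), where red points are genes whose groups do not overlap and the dashed line marks equal values. CD40 lies close to the line, and CD163, CD109, CD86, CD68, CD37, CD9 and CD209 lie below it.

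Leaving out control 2 kept the 4 genes with an unadjusted p under 0.05 (CD40, CD68, CD86 and CD209). Without affected 1, CD86 was above an unadjusted p of 0.05 and 3 of the 4 were left. The 5 genes whose groups did not overlap stayed so in each case, but leaving out a dog cannot make separate groups overlap. Across dogs, affected 4 was the highest dog for 8 of the 24 genes and affected 1 for 5, while a control was highest for 5. The median of the 24 genes, relative to the control mean, was 0.61, 0.37, 0.19 and 0.60 in affected dogs 1 to 4. It was above 0 in every affected dog, and lowest in affected 3, the Dachshund. For the controls it was 0.10, -0.32, 0.20 and 0.08, so affected 3 lay just below control 3.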

How the data were processed

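The authors deposited MAS5 probe set signals, a linear intensity, per the submitters' processing notes. No version of MAS5, detection call or filter is given in the sources used here. The method subtracts mismatch signal, which makes dim values imprecise. Every array had a trimmed mean of 500.1, leaving out 2% at each end, so arrays had been scaled. Median signals ran from 124 to 191, and the number of arrays limits precision. Of 23913 rows, 77 were control probe sets. In the annotation 10549 rows have 1 symbol, 138 have several and 13226 have none. The gene ID of 28 of the 30 genes was found in RefSeq (UU_Cfam_GSD_1.0), all but CD68 and CD320, whose symbols are listed there under other IDs. No build is given, so no coordinates are printed.

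After scaling to a common trimmed mean, values under 34.2 (the 20th percentile) were set to it, and log2 was taken. The groups were compared with limma 3.58.1 in R 4.3.3 (lmFit, eBayes with trend), which was tested on simulated data. Differences are affected minus control, and folds are 2 to that power. Of the 24 tested probe sets that stand for a gene, 8 are of the s_at kind and 1 of the x_at kind, which can bind more than 1 transcript. The rule named with full values the members with an unadjusted p under 0.05 or no overlap and the brightest of each role, and of each partner list the 3 with the smallest p; the other members are named to account for them all. The members and lists were chosen with earlier results of these data known.

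Alternatives were quantile normalization, median centring, other floors, a pseudocount, other filters, eBayes without trend or robust, array weights, a block on replicate number, a cardiac muscle covariate, the mean over a gene's probe sets, and leaving out each dog.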

Additional observations from a re-analysis of the deposited data

Results flagged for a closer look

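Among the 24 tested genes, 6 of 48 groups of 4 dogs had 1 dog whose gap to its nearest neighbour took up more of the group's range than Dixon's 95% limit, where chance gives about 1 in 20. 4 of the 6 were control 2, at 11.07 for CD34, 7.50 for CD109, 10.61 for CD9 and 5.61 for CD37, with the other controls no lower than 12.29, 11.00, 12.20 and 7.89. The other 2 were control 1 for CD81, at 13.65 against 14.02 or more, and control 4 for CD151, at 11.77 against 11.87 or more. Control 2 also had the highest heart muscle signal of all 8 dogs, and the part of muscle in these values was not tested beyond the covariate given under the alternatives.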

How the results depend on the processing

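Each tested gene was recomputed under up to 21 alternatives, and no CD antigen gene passed an adjusted p of 0.05 under any. Over all probe sets, 4 were called with the replicate block and 0 to 1 without single dogs (1 without control 1). The block changed no call of a CD antigen gene at an adjusted p of 0.05. The labels do not say that the replicate numbers pair the dogs. Deviations of same-numbered dogs correlated at -0.12, 0.41, 0.022 and -0.013, and 1 of 4 controls correlated best with its own number. So few dogs cannot decide whether the numbers are pairs. The count of genes higher without overlap was 3 with median centring and 3 with all 8 arrays above the 40th percentile. The shares over all tested probe sets were 1.73% and 2.31%. Without single dogs the count was 5 to 9 (9 without affected 3), where the share over all tested probe sets was 3.03% to 7.2% (7.2% without affected 3). Leaving out a dog cannot lower this count. That of genes lower without overlap was 0 to 1, with CD34 without control 2 and CD40LG without affected 2. The count at an unadjusted p under 0.05, an analysis added after seeing the data, was 2 under the stricter filter, which left fewer genes, and 3 to 6 without single dogs. It was 6 under array weights, with 1 lower (CD164), and 5 under the block, which added CD37, and 5 with the mean over probe sets, which added CD80. Without a filter it was 4, with CD151 in place of CD86, and without affected 2 there was 1 lower gene (CD40LG). Over all tested probe sets, 591 were higher and 560 lower at that threshold in the main fit. These counts were 896 and 1071 under array weights, 670 and 742 under the block, and 591 and 560 with the mean over probe sets. Those higher were 445 of 10690 under the stricter filter and 845 of 23836 without a filter. Without single dogs they were 380 to 1006 (1006 without affected 3). The median ranged from 0.40 to 0.59 without single dogs.

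Of 24 genes, 18 kept their direction throughout. CD81 turned with quantile normalization (-0.12) and median centring (-0.047), and ranged from -0.071 without control 1 to 0.084 without affected 4. CD34 turned with the mean over its probe sets (0.25), and ranged from -0.40 without control 2 to 0.067 without affected 2. CD3D turned under array weights (0.073) and under a 40th percentile floor (0.00065), and ranged from -0.11 without affected 4 to 0.083 without affected 2. The range without single dogs was -0.028 (without control 2) to 1.30 for CD109, -0.052 (without affected 4) to 0.27 for CD47, -0.29 to 0.049 (without affected 2) for CD99 and -0.044 (without control 2) to 0.51 for LCK. The cause was not tested. Array weights put CD163 at 0.53, CD86 at 1.25, CD37 at 0.54, CD109 at 0.22 and CD9 at 0.092. With the cardiac muscle covariate CD109 was at 0.45.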
